A study of Mus musculus with 10 samples.

Results

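The genes described here are the very long protein-coding genes of the mouse brain, those that span at least 500 kb of the genome from first to last annotated base. GENCODE M21 on GRCm38 supplied the spans, and the genes kept were autosomal protein-coding genes of 500000 bases or more, joined to the count files by Ensembl identifier, with at least 10 reads summed over the 10 libraries. Of 20774 autosomal protein-coding genes in the files, 218 were this long. A pair of non-clustered protocadherins (symbols starting with Pcdh) was left out by the rule, and 12 genes had fewer than 10 reads, which left 204 genes of the 54532 counted. The rule used annotation and a minimum of reads, and no difference between genotypes.

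RNA was sequenced from NeuN+ nuclei sorted from brains of adult C57BL/6J mice. The 3 Mphosph8∆n libraries carry the genotype Mphosph8fl/fl Nestin-Cre+ and the 2 Morc2a∆n libraries the genotype Morc2afl/fl Nestin-Cre+. The 5 controls lack Cre but keep the floxed alleles, Mphosph8fl/fl Nestin-Cre- in control replicates 1 to 3 and Morc2afl/fl Nestin-Cre- in replicates 4 and 5, so no library stands for a mouse without floxed alleles and no control carries Cre alone. Nestin-Cre recombines in the progenitors of the nervous system, so glia share the deletion, and each knockout was compared with a single group of controls drawn from both floxed lines.

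Long genes in neurons mostly encode proteins of the synapse and the neuronal surface: neurexins, contactins and IgLON adhesion molecules, ion channels, glutamate receptors and the scaffolds that hold them. Nearly all of their length is intron, RNA polymerase needs hours to cross them, and their transcription is known to depend on topoisomerases and elongation factors. Mphosph8 (MPP8) is a subunit of the HUSH complex and Morc2a an ATPase that works with it, and HUSH is known to silence intronless foreign DNA and young LINE-1 elements, many of which lie in introns of long transcribed genes. The comparisons ask whether RNA of these genes changed when either factor was lost from the nervous system.

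The libraries held 6686038 to 10764555 reads in genes, and counts for each gene were scaled to CPM, the counts of a gene relative to a TMM-adjusted library size. All 8 general neuronal markers, 1 of which is the very long gene Syt1, were detected, and their summed level was 4397 to 5073 CPM in the controls, 4471 to 4746 CPM in Mphosph8∆n and 3505 to 4092 CPM in Morc2a∆n. The genes of that list did not move alike. Snap25, Tubb3 and Nefl were below every control in both Morc2a∆n libraries. Rbfox3, the gene of NeuN, was at 280 and 251 CPM in Morc2a∆n, against 150 to 274 CPM in controls. Map2 was at 664 and 517 CPM, against 394 to 590 CPM. Markers of oligodendrocytes summed to 739 to 964 CPM in controls and 545 to 672 CPM in Morc2a∆n, and those of astrocytes to 423 to 579 and 312 to 424 CPM, so the sorted nuclei were not free of glial RNA. No marker of these lists was at 0 in all libraries. Markers of endothelial cells (at most 6.46 CPM in any library) and microglia (at most 33.5 CPM) were low in all. Markers of cerebellar granule cells summed to 80.6, 114, 119, 510 and 95.2 CPM in control replicates 1 to 5. They were at 283, 424 and 128 CPM in Mphosph8∆n replicates 1 to 3, and at 79.4 and 80.5 CPM in Morc2a∆n. Markers of inhibitory neurons ran from 1500 to 1890 CPM in controls, against 1407 and 1147 CPM in Morc2a∆n replicates 1 and 2. Pituitary markers reached 301 CPM in 1 Mphosph8∆n library, against 3.46 to 23.3 CPM in the controls. The part of these differences in the results was not tested. Reads were counted over whole genes, so the floxed exon was not measured on its own: Mphosph8 stood at 32.2 to 49.0 CPM in controls and 18.8 to 37.2 CPM in Mphosph8∆n, while Morc2a stood at 122 to 163 CPM in controls and 215 to 223 CPM in Morc2a∆n. A whole-gene count therefore did not check the Morc2a deletion.

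The very long genes share an architecture that sets them apart from other coding genes by construction, and some of its features were not part of the rule. The 199 that could be tested had a median span of 731474 bases, against 24881 for the other 13777 coding genes tested, and a median of 24 merged exons against 10. Their exons added up to 10351 bases at the median, against 4444, so these are large transcripts as well as long loci. Even so, exons covered only 1.28% of their span at the median, against 18.3% elsewhere, and the longest intron had a median of 203929 bases. They lie on all 19 autosomes, at most 18 on any of them (chromosome 8), and together span 173 Mb. There are 52 of at least 1 Mb, 5 of which reach 2 Mb.

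The 5 longest are Fgfr2, Ptprd, Cntnap2, Lsamp and Lrp1b. Fgfr2, a fibroblast growth factor receptor, spans 2961 kb (chromosome 7, 130162451 to 133123350), but 2815493 of those bases are a single annotated intron, so its length rests on a distant exon in the annotation, and 29 other protein-coding genes lie within its span. Ptprd, a receptor tyrosine phosphatase of the synapse, spans 2271 kb, and Cntnap2, a neurexin-like adhesion molecule of the axon, spans 2245 kb. Lsamp, a GPI-anchored adhesion molecule of the IgLON family, spans 2197 kb, and Lrp1b, a large receptor related to the LDL receptor, spans 2058 kb. At the threshold, Edil3 (502 kb), Dock1 (503 kb) and Car10 (504 kb) were the shortest members, and Pde1c (499 kb), Dnm3 and Cacna1e lay just below it.

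In reads per gene the very long genes were well expressed, with a median of 55.0 CPM in the controls. Their levels summed to 21034 ± 858 CPM in controls (SD, n = 5), 20761 ± 590 CPM in Mphosph8∆n (n = 3), and 21431 and 19390 CPM in the 2 Morc2a∆n libraries. The groups overlapped, and the genes took between 1.93% and 2.19% of reads in every library. Scaled by exon length, the median was 5.48 CPM per exonic kb in the controls, against 7.46 for coding genes under 10 kb and 5.30 for those from 250 to 500 kb. The highest per exonic kb was Syt1, the calcium sensor of synaptic vesicle release, with 147 CPM per kb. Next came Celf2 (60.2), an RNA-binding splicing regulator, Nrxn3 (57.8), a neurexin, Fam19a1 (49.9), a secreted protein of the brain, and Grm5 (47.4), a metabotropic glutamate receptor. The very long genes had a median coefficient of variation of 16.4% over the 5 controls. For coding genes under 10 kb it was 24.7%, and for ranges of span between 10 and 500 kb it was 17.7% to 20.2%. The median standard error of the log2 fold change in Mphosph8∆n was 0.183, against 0.283 over all genes tested. In the shorter ranges of span it was 0.198 to 0.279.

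In Mphosph8∆n no very long gene passed the test. The edgeR quasi-likelihood test called 0 of 199 at an adjusted p below 0.05 with a fold change above 2, where 0.0969% of all 18573 genes were called, and 0 without a minimum fold change, where 0.113% were called. The lowest adjusted p was 0.805. DESeq2 also called 0, where it called 0.297% of the genes it gave an adjusted p, and limma-voom called 0, beside 0.129% of all genes. At an unadjusted p below 0.05 there were 10 of 199 genes (5.03%), 3 higher and 7 lower, beside 5.67% of all genes. The median log2 fold change was -0.021 (quartiles -0.16 and 0.12), with 92 genes above 0 and 107 below, and the median over all genes was -0.0090. A total of 184 of the 199 lay within 1.5-fold of the controls. In 4 genes all 3 Mphosph8∆n libraries stood above every control (2.01%, beside 2.31% of all genes), and in 2 all stood below (1.01%, beside 2.26%).

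These 6 genes were single cases with small differences. Dlg2 encodes a scaffold of the postsynaptic density, PSD-93. It was at 28.0, 24.4, 27.8, 23.7 and 40.4 CPM in controls 1 to 5 and at 23.5, 13.0 and 17.6 CPM in Mphosph8∆n. The groups did not overlap, although the highest knockout library lay close to the lowest control, and the log2 fold change was -0.68 with an SE of 0.25 (adjusted p = 0.805). Grik2, a kainate receptor subunit, was at 253 to 308 CPM in controls and 250, 230 and 212 CPM in Mphosph8∆n (-0.23 on the log2 scale). Sorcs3, a sorting receptor of the VPS10 family, stood at 93.7 to 120 CPM in controls and at 124, 128 and 129 CPM in Mphosph8∆n (log2 fold change 0.31, SE 0.13). Galntl6, a glycosyltransferase-like gene, Ntm, the IgLON neurotrimin, and Ryr2, a calcium release channel, had log2 fold changes of 0.31, 0.30 and 0.18. None of the 6 passed the adjusted test.

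Larger estimates belonged to genes with few reads. Of the very long genes, 4 had a fold change above 2 in Mphosph8∆n (2.01%, beside 10.3% of all genes), and each of the 4 averaged below 10 CPM. The lowest estimate was that of Dcc, the netrin receptor of axon guidance, at 3.26, 7.03, 3.93, 4.85 and 0.743 CPM in the controls and 1.97, 0.193 and 0.104 CPM in Mphosph8∆n, a log2 fold change of -2.38 with an SE of 0.91 (adjusted p = 0.810). Control replicate 5 lay within the range of the knockouts for this gene.

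In Morc2a∆n the edgeR test again called 0 of 199 very long genes, with a fold change above 2 (0.0592% of all genes called) and without a minimum (0.0861%), and the lowest adjusted p was 0.0811. Other tools called some. DESeq2 called 9 of the 133 to which it gave an adjusted p (6.77%, beside 4.32% of all genes with one), 3 higher and 6 lower, and limma-voom called 1 of 199, beside 0.188% of all genes. In the edgeR fit 34 of 199 (17.1%) were at an unadjusted p below 0.05, beside 10.7% of all genes, and of these 7 were higher and 27 lower. Both knockout libraries stood above every control for 8 genes (4.02%, beside 7.59% of all genes) and below every control for 26 (13.1%, beside 7.8%). The median log2 fold change was -0.12 (quartiles -0.36 and 0.06), with 66 genes above 0 and 133 below, so 66.8% were below 0, against 51.3% of all genes, whose median was -0.014. In sorted nuclei pooled as bulk RNA, fewer cells of a type that expresses a gene and less RNA per cell cannot be told apart.

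The size of this shift rested on the second Morc2a∆n library. The median deviation of the very long genes from the control mean, on the log2(CPM + 0.5) scale, was -0.051 in Morc2a∆n replicate 1 and -0.178 in replicate 2. The 5 controls ran from -0.073 to 0.075 and the 3 Mphosph8∆n libraries from -0.090 to 0.052, so replicate 1 lay within the controls and replicate 2 below every other library. Control replicates 4 and 5, of the Morc2a floxed line, were at -0.073 and -0.025, and control replicates 1 to 3 at -0.013, 0.033 and 0.075. The median log2 fold change of the very long genes was -0.083 in the Morc2a floxed controls against the Mphosph8 floxed controls. In Morc2a∆n against the Morc2a floxed controls alone it was -0.12. Without Morc2a∆n replicate 1 the median log2 fold change was -0.21, beside -0.052 over the 20251 genes tested. Without Morc2a∆n replicate 2 the median was -0.077, beside -0.073 over the 20364 genes tested. Both fits tested more genes than the 18573 of the fit of all libraries, so these all-gene medians are of other sets of genes. With the genes kept fixed, Morc2a∆n replicate 1 had a median deviation of -0.051 at 500 kb and over. Its medians in shorter ranges of span ran from -0.044 to 0.0054. In Morc2a∆n replicate 2 those values were -0.178 and -0.115 to 0.070.

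In markers, of which only Syt1 is a very long gene, Morc2a∆n replicate 2 also lay further from the controls than replicate 1 in several lists. The nuclear long noncoding RNAs of replicate 2 summed to 27792 CPM, against 23124 CPM in replicate 1 and 19180 to 25178 CPM in the controls. Its markers of forebrain excitatory neurons summed to 375 CPM, against 723 CPM in replicate 1 and 643 to 799 CPM in controls, and those of neurons in general to 3505 CPM, against 4092 CPM. Replicate 2 was the lower library for inhibitory neurons as well (1147 against 1407 CPM, controls 1500 to 1890 CPM). For oligodendrocytes it was at 545 against 672 CPM, with controls at 739 to 964 CPM. Replicate 1 too was below every control in both lists and in neurons in general. Striatal markers were at 1277 and 1005 CPM in replicates 1 and 2, against 1293 to 1506 CPM in controls and 960 to 1257 CPM in Mphosph8∆n, and choroid plexus markers at 77.2 and 68.8 CPM, against 96.5 to 167 CPM in controls. Cytosolic ribosomal protein genes summed to 3156 to 3696 CPM in Morc2a∆n and 3404 to 4193 CPM in controls. Their part in the lower median of the very long genes was not tested.

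**Figure D1:**
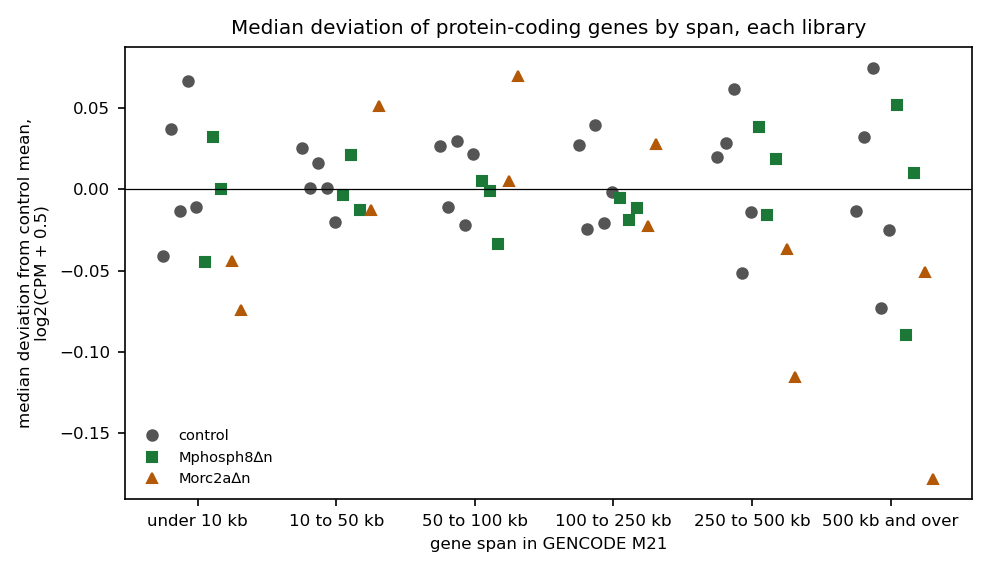
Median deviation from the control mean, as log2(CPM + 0.5), of tested autosomal protein-coding genes in 6 bins of span (x axis), with 1 point for each of the 10 libraries. In the bin of 500 kb and over, Morc2a∆n replicate 2 lies at -0.178, below every other library, and replicate 1 at -0.051, within the range of the controls.

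Span alone did not order the fold changes. In Morc2a∆n the median log2 fold change was -0.09 for 3277 coding genes under 10 kb, 0.01 for those from 10 to 50 kb, 0.02 from 50 to 100 kb, -0.02 from 100 to 250 kb, -0.10 from 250 to 500 kb and -0.12 at 500 kb and over. The medians furthest below 0 were thus those of the shortest genes and of both bins above 250 kb. In Mphosph8∆n every bin had a median between -0.02 and 0.01. Among the very long genes themselves, the 147 under 1 Mb had a median of -0.10 in Morc2a∆n and the 52 of 1 Mb or more a median of -0.22, with 75% of the latter below 0. Level differed as well: the median was -0.23 for the 66 with the lowest mean CPM, -0.17 for the middle 66 and -0.06 for the 67 with the highest. In Mphosph8∆n the same 5 sets had medians between -0.04 and -0.02. These medians are descriptions and were not tested against each other.

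**Figure D2:**
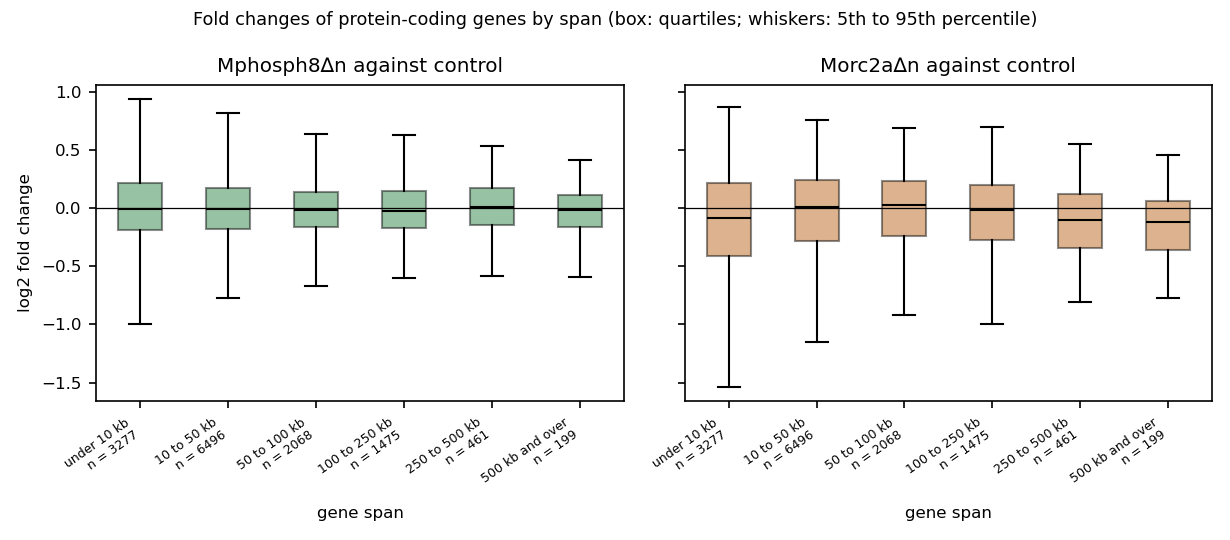
Log2 fold change (y axis) of tested autosomal protein-coding genes against the controls in 6 bins of span, for Mphosph8∆n (left) and Morc2a∆n (right). Boxes span the quartiles with the median as a line, and whiskers run from the 5th to the 95th percentile. The 199 genes of 500 kb and over have a median of -0.02 on the left and -0.12 on the right, and their whiskers cover the narrowest range of the 6 bins in both panels.

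Lsamp had the lowest adjusted p of the very long genes in Morc2a∆n. It is a surface adhesion molecule of limbic neurons, on chromosome 16 (39984361 to 42181679). It stood at 57.4, 69.3 and 57.6 CPM in control replicates 1 to 3, at 109 and 106 CPM in control replicates 4 and 5, at 65.3, 66.0 and 59.1 CPM in Mphosph8∆n and at 165 CPM in each of the 2 Morc2a∆n libraries. The libraries thus fell into 3 levels that do not overlap: all those of the Mphosph8 floxed line, the Morc2a floxed controls, and Morc2a∆n. Against all 5 controls the log2 fold change was 1.05 with an SE of 0.22 (adjusted p = 0.0811). Against only the Morc2a floxed controls it was 0.62 (adjusted p = 0.274). Over 18 other settings its adjusted p ranged from 1.5e-06 to 0.311, and 7 of them called it.

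Control replicates of the 2 floxed lines differed in Lsamp without any Cre. In a fit of 4 groups, in which each knockout has the controls of its own line, the Morc2a floxed controls were higher than the Mphosph8 floxed controls by 0.81 on the log2 scale (adjusted p = 0.0492). It was the only very long gene called between the control lines by edgeR, where 0.172% of all genes were called, and 15 of 199 (7.54%) had an unadjusted p below 0.05, beside 9.21% of all genes. DESeq2 called 3, where it called 1.1% of all genes, among them Lsamp and Zbtb20, a zinc finger repressor. Zbtb20 was at 371, 377 and 370 CPM in control replicates 1 to 3 and at 266 and 212 CPM in replicates 4 and 5. Zbtb20 lies 694 kb from Lsamp on the same chromosome. The line and any difference of batch between the control sets cannot be told apart.

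Rbfox1, a neuronal splicing factor on chromosome 16 (5885355 to 7411526), stood at 85.0, 88.7, 88.0, 59.9 and 63.1 CPM in the controls, 84.1, 46.4 and 52.7 CPM in Mphosph8∆n, and 225 and 89.3 CPM in Morc2a∆n. The high value was that of Morc2a∆n replicate 1, while replicate 2 lay just above the highest control. The log2 fold change was 1.03 with an SE of 0.28 (adjusted p = 0.172), and without replicate 1 it was 0.22. DESeq2 called it (log2 fold change 1.03, adjusted p = 0.0174), on the same 2 libraries.

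Arhgap15, a GTPase-activating protein of Rac (chromosome 2, 43748824 to 44395953), was lowest in Morc2a∆n. Controls were at 9.15, 17.5, 18.4, 7.72 and 19.3 CPM, Mphosph8∆n at 7.14, 6.48 and 10.2 CPM, and Morc2a∆n at 3.09 and 3.62 CPM. Both Morc2a∆n libraries were below every other library, and the controls themselves ran from 7.72 to 19.3 CPM. The log2 fold change was -2.10 with an SE of 0.46 (adjusted p = 0.0916) in Morc2a∆n and -0.86 with an SE of 0.36 (adjusted p = 0.831) in Mphosph8∆n. In Morc2a∆n 3 of 18 other settings called it.

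The sequences around the starts of these 3 genes are shown because each was called in Morc2a∆n under at least 1 alternative and estimated at over 2-fold. The CpG content of the sequences shown also differs, CpG being the site of DNA methylation. RefSeq promoter windows on GRCm38.p6, 250 bases before to 50 after the annotated start and read on the gene's strand, are printed with each CG in capitals. The windows are chr16:39984114-39984413 for Lsamp, chr2:43748574-43748873 for Arhgap15 and chr16:5884543-5884842 for Rbfox1, all on the plus strand. The Rbfox1 window belongs to a RefSeq start 562 bases from the 5′ end of the GENCODE gene.
Lsamp: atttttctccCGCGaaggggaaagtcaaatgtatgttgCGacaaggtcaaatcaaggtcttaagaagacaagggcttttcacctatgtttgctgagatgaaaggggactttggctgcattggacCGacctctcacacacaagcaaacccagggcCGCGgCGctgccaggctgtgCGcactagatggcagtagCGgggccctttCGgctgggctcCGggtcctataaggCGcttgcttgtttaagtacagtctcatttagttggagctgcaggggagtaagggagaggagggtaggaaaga
Arhgap15: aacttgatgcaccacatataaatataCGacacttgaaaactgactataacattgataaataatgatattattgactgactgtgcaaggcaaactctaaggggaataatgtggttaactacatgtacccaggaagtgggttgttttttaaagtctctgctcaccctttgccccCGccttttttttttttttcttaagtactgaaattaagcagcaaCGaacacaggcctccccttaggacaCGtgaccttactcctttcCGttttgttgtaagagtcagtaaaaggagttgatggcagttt
Rbfox1: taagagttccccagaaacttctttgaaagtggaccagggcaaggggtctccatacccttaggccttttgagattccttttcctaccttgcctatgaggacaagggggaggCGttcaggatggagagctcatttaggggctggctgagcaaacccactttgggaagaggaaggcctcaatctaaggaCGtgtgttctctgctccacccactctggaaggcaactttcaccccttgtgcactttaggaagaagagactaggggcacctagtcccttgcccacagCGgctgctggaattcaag

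The Lsamp window holds 12 CpG (observed to expected ratio 0.592), that of Arhgap15 holds 5 and that of Rbfox1 holds 3 (ratio 0.144). Each of these genes had 2 windows, of which 1 is shown, so the counts are those of that window alone. Windows were found for 159 of the 204 very long genes. Their median CpG ratio was 0.644 and their median GC content 61.0%, against 0.614 and 57.3% for 15520 other autosomal coding genes, and 56.6% had a ratio above 0.6, against 51.1%. The letters TATAAA, searched on both strands, occurred in 14 of the 159 windows (8.81%), that of Arhgap15 among them, and in 13.0% of the others.

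The other genes whose Morc2a∆n libraries lay above every control had levels that were close between the 2 libraries in some cases and not in others. The uncharacterised coding gene 5730522E02Rik stood at 23.5 to 27.8 CPM in controls, 26.1 to 30.0 CPM in Mphosph8∆n, and 41.6 and 41.9 CPM in Morc2a∆n. Its log2 fold change was 0.68 with an SE of 0.20 (adjusted p = 0.221), and DESeq2 called it (adjusted p = 0.0329). Grip1, a PDZ scaffold of AMPA receptors, was at 32.4 to 45.1 CPM in controls and 56.1 and 58.7 CPM in Morc2a∆n (0.57 on the log2 scale). Alk, a receptor tyrosine kinase, was at 11.0 to 20.2 CPM in controls and 35.7 and 21.8 CPM in Morc2a∆n (0.99), with the first library well apart from the second, and the estimate was 0.60 without replicate 1.

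DESeq2, but not edgeR, called Lrrc4c and Cntn4 lower in Morc2a∆n. Lrrc4c, the netrin-G ligand of excitatory synapses, was at 72.6, 79.1, 76.8, 68.7 and 71.4 CPM in controls, 64.5, 60.2 and 76.5 CPM in Mphosph8∆n, and 41.4 and 50.9 CPM in Morc2a∆n. Its log2 fold change was -0.68 with an SE of 0.17 (edgeR adjusted p = 0.156, DESeq2 0.00658). Cntn4, an axonal contactin, had controls between 48.2 and 53.8 CPM and Morc2a∆n libraries at 33.3 and 29.6 CPM (log2 fold change -0.69, edgeR adjusted p = 0.178, DESeq2 0.0112). Both genes were clear of the controls in each library, and in neither did a Mphosph8∆n library reach the Morc2a∆n range.

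DESeq2 called 4 further genes lower in Morc2a∆n. Nell1, a secreted protein, stood at 61.0 to 94.2 CPM in controls and 56.5 and 42.1 CPM in Morc2a∆n. Plcb1, a phospholipase C of receptor signalling, stood at 83.5 to 105 CPM in controls, 74.7 to 84.6 CPM in Mphosph8∆n and 67.3 and 65.8 CPM in Morc2a∆n. Kcnd2, the A-type potassium channel Kv4.2, stood at 95.5 to 130 CPM and at 85.9 and 59.3 CPM. Ctnnd2, the neuronal delta-catenin, stood at 150 to 238 CPM and at 151 and 131 CPM, so that 1 of its Morc2a∆n libraries lay within the controls. In each of these replicate 2 was the lower of the 2 libraries. The edgeR fold changes of the 4 were -0.69, -0.52, -0.62 and -0.51 on the log2 scale, with adjusted p of 0.193, 0.229, 0.253 and 0.257.

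The remaining large estimates were of less expressed genes. Cpq, a secreted carboxypeptidase, was at 2.63 to 6.93 CPM in controls and 2.13 and 0.826 CPM in Morc2a∆n (log2 fold change -1.73, SE 0.93), and the estimate was -2.56 without replicate 1 and -1.21 without replicate 2. Prkg1, the cGMP-dependent protein kinase, was at 2.63 to 5.64 CPM and at 2.24 and 0.826 CPM (log2 fold change -1.34), with -2.21 without replicate 1 and -0.80 without replicate 2. Esrrg, an orphan nuclear receptor, was at 14.0 to 25.4 CPM and at 11.5 and 8.99 CPM (-0.99). Cdh12, a cadherin, was at 21.1, 22.4, 20.2, 21.5 and 10.7 CPM in controls and at 10.5 and 10.1 CPM in Morc2a∆n (-0.89), with control replicate 5 beside the knockouts. Of the 9 genes with a fold change above 2 in Morc2a∆n (4.52%, beside 13.1% of all genes), 6 averaged below 10 CPM.

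**Figure D3:**
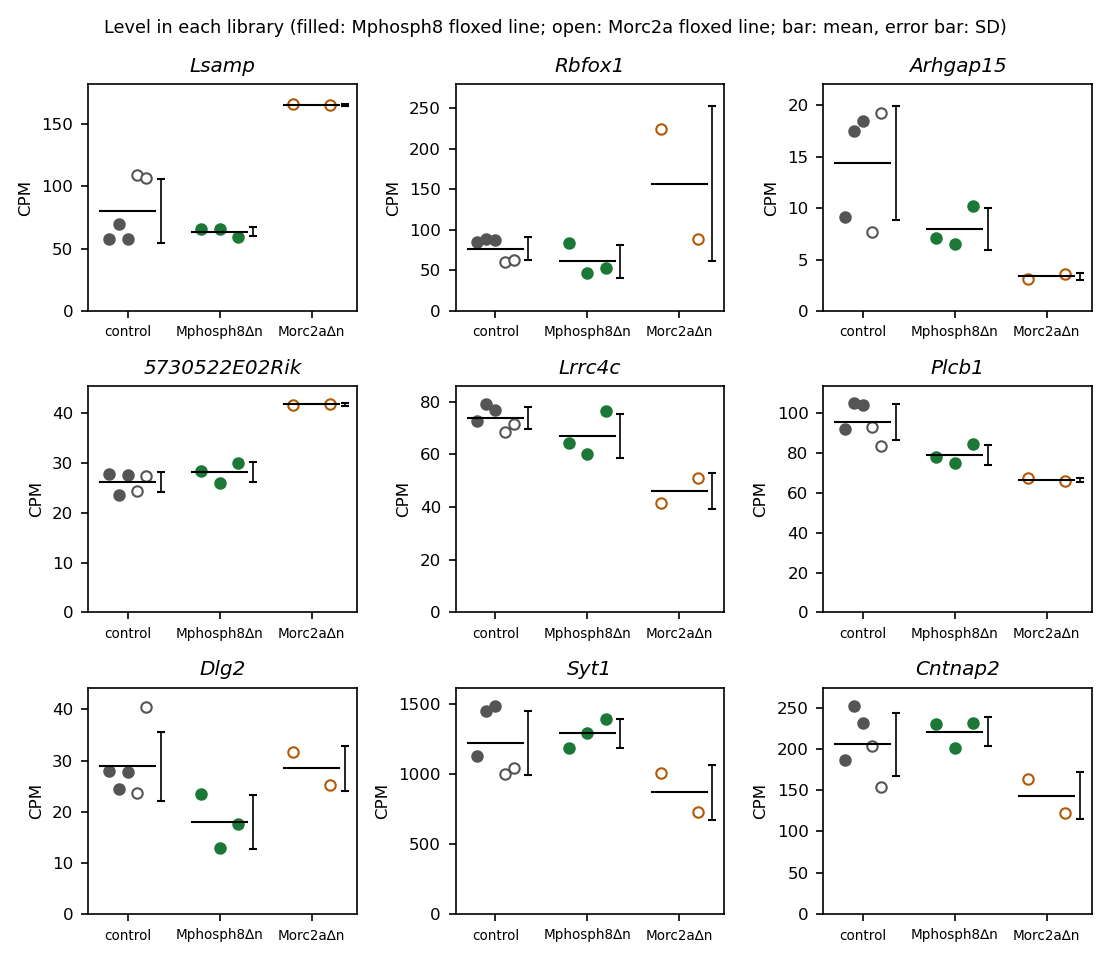
Level in CPM (y axis, from 0) of 9 very long genes in each library of the 3 groups; filled points are libraries of the Mphosph8 floxed line, open points those of the Morc2a floxed line, bars are means and error bars SD. Lsamp lies at 3 levels, with the Morc2a floxed controls (109 and 106 CPM) between the other controls and Morc2a∆n (165 CPM), and Rbfox1 is high in 1 Morc2a∆n library (225 CPM).

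By role, 163 of the 204 genes could be placed in 10 lists and 41 were left unassigned. Adhesion molecules and synapse organizers were the largest list, with 38 genes. Their median log2 fold change was -0.03 in Mphosph8∆n and -0.16 in Morc2a∆n, where 12 were above 0 and 26 below. Beside 10.7% of all genes in Morc2a∆n, 7 of the 38 had an unadjusted p below 0.05, 1 higher and 6 lower. The best expressed of them, Nrxn3 and the IgLON Opcml, stayed within the range of the controls or close to it: Nrxn3 was at 651 to 835 CPM in controls and 753 and 612 CPM in Morc2a∆n, and Opcml at 491 to 735 CPM and 605 and 517 CPM. Cntnap2 was at 154 to 252 CPM in controls and 163 and 123 CPM in Morc2a∆n (log2 fold change -0.52, adjusted p = 0.288).

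Genes of intracellular signalling had the lowest median in Morc2a∆n, -0.35 over 14 genes, 13 of them below 0. At an unadjusted p below 0.05 were 6, beside 10.7% of all genes. All 6 were lower, among them Arhgap15, Plcb1 and Elmo1, a regulator of Rac. Elmo1 stood at 139 to 177 CPM in controls and at 139 and 121 CPM in Morc2a∆n. The best expressed gene of this list, Kalrn, a guanine nucleotide exchange factor of dendritic spines, was at 286 to 355 CPM in controls and 321 and 290 CPM in Morc2a∆n, within the controls. In Mphosph8∆n the median of the list was -0.08. Receptor phosphatases, receptor kinases and growth factors followed with -0.26 over 12 genes, 3 above and 9 below 0. The most expressed of these, Ptprd, was at 484 to 656 CPM in controls and 631 and 600 CPM in Morc2a∆n, and Ntrk3, the receptor of neurotrophin-3, at 295 to 365 CPM and 346 and 318 CPM. Both lay within the range of the controls.

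In the 12 genes of vesicle release and membrane traffic the Morc2a∆n median was -0.12, with 2 above 0 and 10 below. Syt1, the most abundant of them, was at 1133, 1448, 1487, 1002 and 1042 CPM in controls, 1187, 1292 and 1392 CPM in Mphosph8∆n, and 1009 and 731 CPM in Morc2a∆n. The Morc2a floxed controls were near Morc2a∆n replicate 1, while Morc2a∆n replicate 2 lay below every control. The log2 fold change of Syt1 in Morc2a∆n was -0.49 (adjusted p = 0.272) against all 5 controls and -0.23 against those of the same line. Nbea, a trafficking protein of the synapse, was within the controls in both Morc2a∆n libraries.

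Ion channels and their auxiliary subunits, 16 genes, had a median of 0.11 in Mphosph8∆n and -0.08 in Morc2a∆n. Beside 10.7% of all genes in Morc2a∆n, 4 of the 16 were at an unadjusted p below 0.05, all lower. Cacna2d3, a calcium channel subunit, and Kcnma1, the BK potassium channel, were the best expressed, with log2 fold changes of 0.07 and 0.10 in Morc2a∆n. The 7 neurotransmitter receptors had medians of 0.04 and 0.02, and Grm5, at 421 to 528 CPM in controls and 508 and 473 CPM in Morc2a∆n, lay within the controls. Scaffold and cytoskeleton genes (20) had medians of -0.02 and -0.01, and among them Ank2, an ankyrin, and Dlgap1, a postsynaptic scaffold, had log2 fold changes of 0.14 and -0.10 in Morc2a∆n. Receptors and scaffolds thus had the medians nearest to 0 of the 10 lists in Morc2a∆n.

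The 18 tested genes of transcription and RNA binding had medians of -0.01 in Mphosph8∆n and -0.10 in Morc2a∆n. Celf2, the most abundant of all very long genes in reads, was at 1500, 1639, 1584, 1556 and 1517 CPM in controls, 1236, 1365 and 1521 CPM in Mphosph8∆n, and 1847 CPM in each Morc2a∆n library. Both Morc2a∆n libraries were above every control, with a log2 fold change of 0.24 and an SE of 0.10 (adjusted p = 0.373). The 16 tested enzymes had medians of 0.0046 and -0.10. The 8 genes of axon guidance and migration had medians of -0.23 and -0.14, and their best expressed, the netrin receptor Unc5d and the reelin adaptor Dab1, had log2 fold changes between -0.21 and 0.06 in either knockout.

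**Figure D4:**
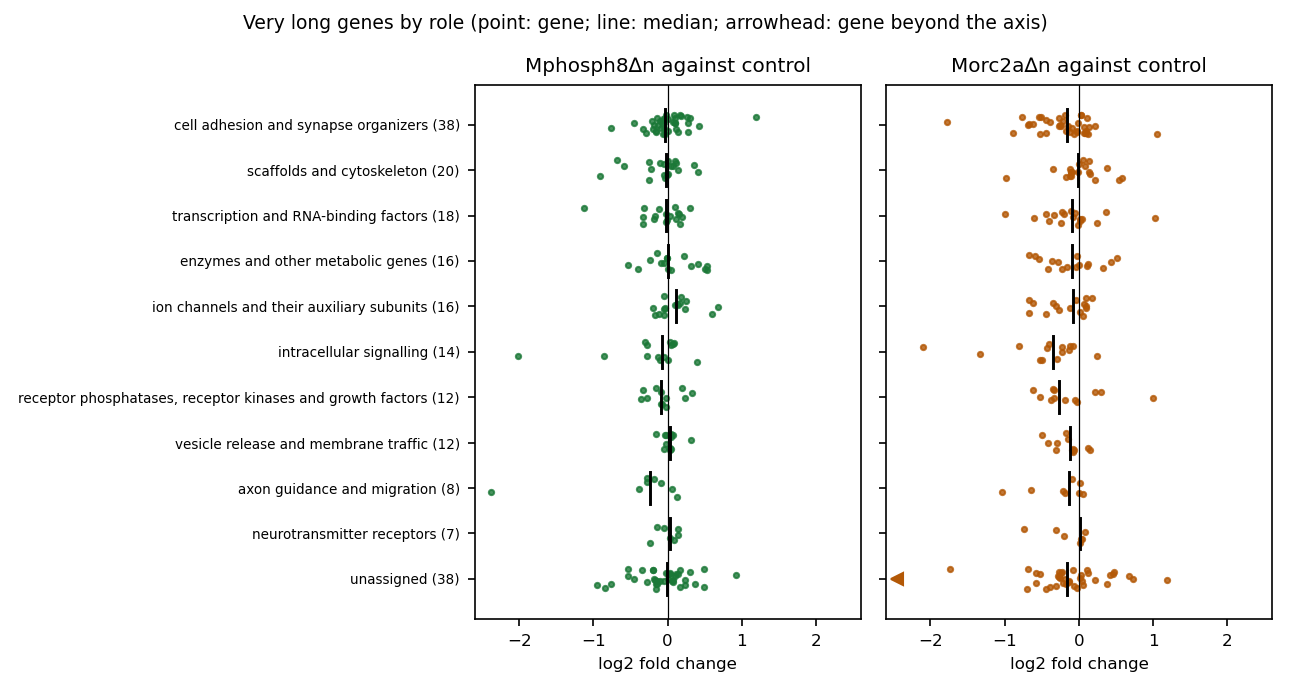
Log2 fold change against the controls (x axis) of the 199 tested very long genes in 10 role lists and the unassigned genes, for Mphosph8∆n (left) and Morc2a∆n (right), with 1 point per gene and a line at the median; the number of tested genes stands in brackets. Signalling genes have the lowest median on the right (-0.35), and 1 unassigned gene, Lrmda, with no reads in either Morc2a∆n library, lies beyond the axis.

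The effects of both knockouts were compared directly in the fit of 4 groups, where they share no control. No very long gene differed between them by edgeR (0 of 199, with 0% of all genes called), the lowest adjusted p was 0.222, and 17 (8.54%) were at an unadjusted p below 0.05, beside 7.95% of all genes. DESeq2 called 1, Rbfox1, beside 0.345% of all genes. Fold changes were above 0 in both knockouts for 27 genes, below 0 in both for 68 and of opposite sign for 104, so 47.7% had the same sign, beside 48.9% of all genes. The median was -0.03 for Mphosph8∆n and -0.12 for Morc2a∆n against the controls of the same line.

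Because young LINE-1 and other inserted sequences lie in introns, the genes annotated inside the very long genes were examined as well. Of the 204 genes, 197 hold other annotated genes within their span, 1100 in all, and 364 of these were tested. edgeR called 0 of them in either knockout, beside 0.113% of all genes in Mphosph8∆n and 0.0861% in Morc2a∆n. At an unadjusted p below 0.05 there were 19 (5.22%) in Mphosph8∆n, beside 5.67% of all genes, and 29 (7.97%) in Morc2a∆n, beside 10.7%. Processed pseudogenes, which are intronless copies of RNAs, made up 224 of the 1100, and 37 had enough reads to test. None was called. At an unadjusted p below 0.05 were 2 in Mphosph8∆n (5.41%, beside 5.67% of all genes) and 1 in Morc2a∆n (2.7%, beside 10.7%). LINE-1 elements themselves are not features of the count files and were not analysed here. Of the 204 very long genes, 7 shared more than 10% of their exonic bases with other genes and 130 shared none.

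The factors that carry polymerase through long genes were read from a separate list. Of 31 topoisomerases, elongation factors and related proteins, 30 were tested. By edgeR 0 were called in either knockout, beside 0.113% of all genes in Mphosph8∆n and 0.0861% in Morc2a∆n. At an unadjusted p below 0.05 were 0 in Mphosph8∆n, beside 5.67% of all genes, and 2 in Morc2a∆n, beside 10.7%. Top1, the topoisomerase on which long neuronal genes are known to depend, was at 35.7 to 63.9 CPM in controls, 31.8 to 48.5 CPM in Mphosph8∆n and at a mean of 38.3 CPM in Morc2a∆n. Top2b, a type II topoisomerase of neurons, and Sfpq, an RNA-binding factor of long introns, had log2 fold changes between -0.31 and 0.17 in either knockout. The 2 in Morc2a∆n were Leo1, of the PAF1 elongation complex (-0.80), and Polr2a, the largest subunit of RNA polymerase II (-0.62, adjusted p = 0.272). Neither passed the adjusted test.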

How the data were processed

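Per the labels and the study's methods, the authors sequenced poly(A) RNA of sorted NeuN+ nuclei, trimmed reads with Trim Galore 0.5.0, removed abundant sequences with Bowtie2 2.3.4.1, aligned to GRCm38 with STAR and counted reads per gene with featureCounts (Subread 1.6.2). What the authors deposited are unnormalized read counts for 54532 genes. The strand setting and the treatment of reads that overlap several genes are not given in the sources used here.

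Counts were analysed with edgeR 4.0.16 (filterByExpr, TMM, quasi-likelihood test, R 4.3.3). All 10 libraries entered 1 fit of 3 groups in which 18573 genes were tested, 199 of the 204 very long genes among them, with Benjamini-Hochberg adjustment across those 18573 genes. A second fit had 4 groups, each knockout and the controls of its floxed line. CPM used TMM-scaled library sizes. Spans, exons and nested genes came from GENCODE M21, in which 54495 identifiers were found, and promoter windows from RefSeq. DESeq2 1.42.0 and limma-voom 3.58.1 were alternatives.

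The genes, role lists and tests were chosen with earlier results of these data known. Genes named were the longest, those with the highest level per exonic kb, the 2 with the highest CPM in each role list, those at the span threshold, the targeted genes, and, for each knockout, up to 5 rises and 5 falls with a mean of at least 1 CPM and all libraries beyond every control. Genes called by DESeq2 or limma-voom, Magi1, Celf2 and Cntnap2 beyond that rule, Dcc, Elmo1, Lrmda, Leo1, Polr2a and single marker genes were named after their values were seen. Some genes that meet these rules are not reported here. Nothing in the labels says that libraries came from separate mice beyond the design's statement on brains per genotype, so p-values measure the spread between these libraries. No pair of replicates agreed within sampling noise.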

Additional observations from a re-analysis of the deposited data

Results flagged for a closer look

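In 4 of the 45 sets of control values examined, 1 control stood apart from the other 4 by Dixon's test at the 95% level (critical value 0.71 for 5 samples). Chance flags about 1 set in 20. Dlg2 was at 40.4 CPM in control replicate 5 against 23.7 to 28.0 CPM in the others. Cdh12 was at 10.7 CPM in control replicate 5 against 20.2 to 22.4 CPM. Ptprd was at 656 CPM in control replicate 5 against 484 to 512 CPM, and Opcml at 735 CPM in the same library against 491 to 546 CPM. The 4 reported here fell in control replicate 5, which carries Morc2afl/fl. The cause was not tested.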

How the results depend on the processing

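No very long gene was called in Mphosph8∆n under any alternative run, and leaving out single libraries gave 0 to 0 calls and medians of -0.04 to 0.03 on the log2 scale. The calls in Morc2a∆n depended on the setting. With a fold change above 2, there were 3 of 204 without a filter on low counts (Lsamp, Rbfox1 and Arhgap15) and 2 of 181 with at least 10 counts in every library. There were 1 of 199 with the replicate block (Lsamp), 2 of 199 by DESeq2, which gave 66 no adjusted p, and 1 of 199 by limma-voom. When single libraries were left out there were 0 to 2. The same 5 settings, from no filter to limma-voom, called 0.317%, 0.18%, 0.248%, 0.348% and 0.0861% of all genes, against 0.0592% in the fit reported. Calls thus rose among genes in general too. In each of these settings the share called was higher among the very long genes, but it rested on 3 genes at most. At any fold change the counts were 3, 2, 1, 9 and 1 in that order, beside 0.764%, 0.457%, 0.361%, 4.32% and 0.188% of all genes, and 0 to 2 with libraries left out. Without control replicate 4 the 2 calls were Lsamp and Arhgap15, and without control replicate 5 they were Lsamp and Magi1 at any fold change, beside 0.136% and 0.295% of all genes. The Morc2a∆n median ranged from -0.21 to -0.077 when libraries were left out. Between the knockout effects 1 gene was called without a filter and 1 by DESeq2, against 0, and between the control lines 4 and 3, against 1. Of all genes these settings called 0.311% and 0.345%, and 0.793% and 1.1%. The settings also differ in how many genes they test, and the cause of the changed calls was not tested.

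With the replicate numbers of the labels as a replicate block, the median was -0.05 in Mphosph8∆n and -0.16 in Morc2a∆n. Same-numbered libraries did not deviate together (correlations of -0.03 to 0.04 over 7 pairs, against -0.06 to 0.04 over 24 other pairs), so the numbers were not taken as pairs. With 2 Morc2a∆n libraries, a single library decides a value such as that of Rbfox1.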
